A study of Mus with 6 samples.

Results

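The genes described here encode enzymes and carriers of glycolysis, lactate handling and the pentose phosphate pathway, with the pyruvate dehydrogenase complex and its kinases. They were chosen by symbol, as all probes whose annotated gene was on a list of 36 genes. Of these, 32 genes had a probe, 57 probes in all among the 45281 of the array. The annotation named 0 probes under the symbols Hk2, Gpi1, Eno1 and G6pdx, and these genes were not analysed here. RNA was measured on 6 Illumina bead arrays, 3 from Klf4-deficient and 3 from WT leukaemic cells. Klf4 encodes a zinc finger transcription factor. Both groups were leukaemia stem cell fractions from the bone marrow of mice with chronic myeloid leukaemia induced by BCR-ABL p210, taken 14 days after transplantation and labelled C57BL/6. In both, the sort kept GFP+ lineage-negative cells that carried Sca-1 and c-Kit (LSK). The sources used here name neither the Klf4 allele nor what deleted it. Whether the 3 samples of a group are separate mice is not stated either, and the p-values below take the spread between samples as it is, technical or not.

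Glycolysis breaks glucose down to pyruvate in the cytosol and yields ATP without oxygen. Pyruvate is then reduced to lactate by lactate dehydrogenase and exported, or oxidised in mitochondria by pyruvate dehydrogenase, which pyruvate dehydrogenase kinases switch off. The pentose phosphate pathway branches off at glucose 6-phosphate and supplies NADPH and the ribose of nucleotides. In mice, blood stem cells are known for a high use of glycolysis, and loss of Ldha or of the M2 form of pyruvate kinase is known to slow BCR-ABL leukaemia.

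On each array 15.6% to 15.9% of probes were above an intensity of 32, the level below which values were treated as not above background. The arrays shared nearly the same sorted values as deposited, so this likeness does not compare the signal of the samples. WT replicate 3 stood apart. Over the 13773 features tested, its Pearson r with each of the other arrays was 0.29 to 0.31, against 0.68 to 0.74 among those 5. Over the 26 tested genes of sugar metabolism alone r was 0.17 to 0.39 for WT replicate 3 and 0.46 to 0.86 among the other 5. These are descriptions across genes, which are not independent replicates. Klf4 itself gave no check of the labels, since only 1 of its 18 values (3 probes, 6 arrays) exceeded 32. Of the markers of the sort, Kit, which encodes c-Kit, exceeded 32 on 2 Klf4-deficient arrays and 1 WT array, and Ly6a, which encodes Sca-1, was not analysed here. The summed intensity of the 8 stem cell markers with a probe ranged from 282.9 to 454.0 on Klf4-deficient arrays and from 262.5 to 957.5 on WT arrays, with Slamf1 below 32 on all 6. Of the 7 tested, 2 were higher and 5 lower in Klf4-deficient cells. Single genes set the sums, since Flt3 alone gave 864.1 of the 957.5, on WT replicate 2, and Kit read 381.5 on WT replicate 3.

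Markers of other marrow cells varied between arrays beside the genes described below. Summed erythroid markers ranged from 2973.0 to 3808.4 on Klf4-deficient arrays and from 1371.3 to 3010.7 on WT arrays (6 genes with a probe, Epor below 32 on all arrays). All 5 tested erythroid genes were higher in mean in Klf4-deficient cells, against 45% of all features. Their median difference was 1.03 (log2), against -0.071 over all features. The groups overlapped for all of them but Alas2. Hba-a1, for instance, was highest on WT replicate 2, at 1996.1, and lowest on WT replicate 3, at 74.5. Tfrc read 1194.6, 551.3 and 163.2 in Klf4-deficient cells, against 126.2, 95.9 and 1044.0 in WT. Of all these markers, Alas2 and Thy1 reached an unadjusted p under 0.05 (limma, 2.16% of all features) and are named for that, after their values were seen. Alas2, the haem synthesis enzyme of red cells, read 172.0, 114.1 and 160.7 in Klf4-deficient cells, against 8.8, 26.1 and -15.0 in WT. Thy1, a surface protein listed here with the T and NK cell markers, read 113.0, 187.2 and 146.0 in Klf4-deficient cells, against 24.4, 26 and -7.0 in WT. The groups did not overlap for either gene, as for 3.41% of all features, and they overlapped for every other marker tested. Neutrophil markers ranged from 2188.0 to 3180.5 on Klf4-deficient arrays and from 2674.1 to 7523.3 on WT arrays (9 genes, Ngp below 32 throughout), and 4 of the 8 tested were higher and 4 lower. Monocyte and macrophage markers ranged from 45 to 95.2 on Klf4-deficient arrays and from 66.9 to 579.5 on WT arrays (5 genes, Ccr2 below 32 throughout), and all 4 tested were lower. The highest neutrophil and monocyte sums were both those of WT replicate 3, where Mpo alone gave 7153.2 of the 7523.3 while S100a9 read 2.9 and Ctsg 8.8. Mast cell and basophil markers ranged from 2481.6 to 3724.4 on Klf4-deficient arrays and from 1221.4 to 3066.0 on WT arrays (6 genes, Ms4a2 below 32 throughout), and all 5 tested were higher in mean. The lowest of these sums was that of WT replicate 3, while WT replicates 1 and 2, at 3066.0 and 2758.5, lay inside the Klf4-deficient range. Gata2, for instance, read 601.6, 415.3 and 346.2 in Klf4-deficient cells, against 698.9, 534.7 and -1.9 in WT. Megakaryocyte markers ranged from 487.8 to 1205.9 on Klf4-deficient arrays and from 246.9 to 1474.2 on WT arrays (5 genes, Gp1bb and Ppbp below 32 throughout). T and NK cell markers ranged from 167.3 to 307.6 on Klf4-deficient arrays and from 42.2 to 301.5 on WT arrays (8 genes, with Cd2, Klrb1c and Ncr1 below 32 throughout). Of the 5 tested, 3 were higher and 2 lower, so the direction of Thy1 was not that of the whole list. Cd3e and Cd3d exceeded 32 only on WT replicate 3, at 56.3 and 225.4. B cell markers ranged from 40.0 to 143.4 on Klf4-deficient arrays and from 52.6 to 92.8 on WT arrays (4 genes, with Cd79b, Pax5 and Ms4a1 below 32 throughout). The part of these other cells in the values below was not tested. In such bulk samples, fewer cells of a type and less RNA per cell cannot be told apart.

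Setting Klf4-deficient against WT cells asks whether transcripts of sugar metabolism differ in the leukaemic stem cell fraction when Klf4 is missing. Of the 32 genes, 26 exceeded 32 on at least 1 array and were tested, each on its brightest probe, as the difference of mean log2 intensities with values below 32 set to 32. In limma, 0 of the 26 had an adjusted p under 0.05, against 0% of all 13773 features. At an unadjusted p under 0.05 there were 0 of 26, against 2.16% of all features. That count depended on single arrays. Without WT replicate 1 it was 4 of 26 (Pfkm, Rpia, Taldo1 and Aldoa, 15.4% against 4.35% of features), and without WT replicate 2 it was 3 of 25 (Pkm, Tkt and Pgam1, 12% against 5.14%). Without Klf4-deficient replicate 3 it was 1 of 26 (Pdk1, 3.85% against 2.59%), and it was 0 when any of the other 3 arrays was left out. The lowest adjusted p among these genes in the 6 fits was 0.373, without WT replicate 2. The 2 groups of arrays did not overlap for 2 of the 26 (3.41% of all features), Rpia, higher in Klf4-deficient cells, and Hk1, lower. The adjusted p ranged from 0.718, a value that the adjustment gave to 19 of them, to 0.974. The 95% intervals of all 26 differences included 0, with a median half-width of 1.55 (log2), so differences of that size were mostly not detectable with 3 arrays a group.

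By direction, 16 of the 26 were higher and 10 lower in Klf4-deficient cells, or 61.5% higher against 45% of all features, and the median difference was 0.24 (log2) against -0.071 over all features. The lean changed with single arrays. Without WT replicate 3, 13 of 25 tested genes were higher (52%, against 55.1% of features) and the median was 0.052, against 0.059 over all features. Without Klf4-deficient replicate 1, 11 of 23 were higher (47.8%, against 40.7% of features) and the median turned to -0.11, against -0.13 over all features. Whichever array was left out, 11 of the 26 genes kept the sign of their difference (Hk1, Pfkm, Aldoa, Tpi1, Pgam1, Pkm, Ldha, Pdk1, Tkt, Taldo1 and Rpia, each on the same probe). A second probe of Pfkm went the other way, and the second probe of Pkm turned to -0.47 without WT replicate 3. The share over all features is not given here, so this count has no background beside it. The median also moved with the processing, to 0.61 when 16 was added to the values instead of the floor, and to 0.032 with dim features kept.

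**Figure D1:**
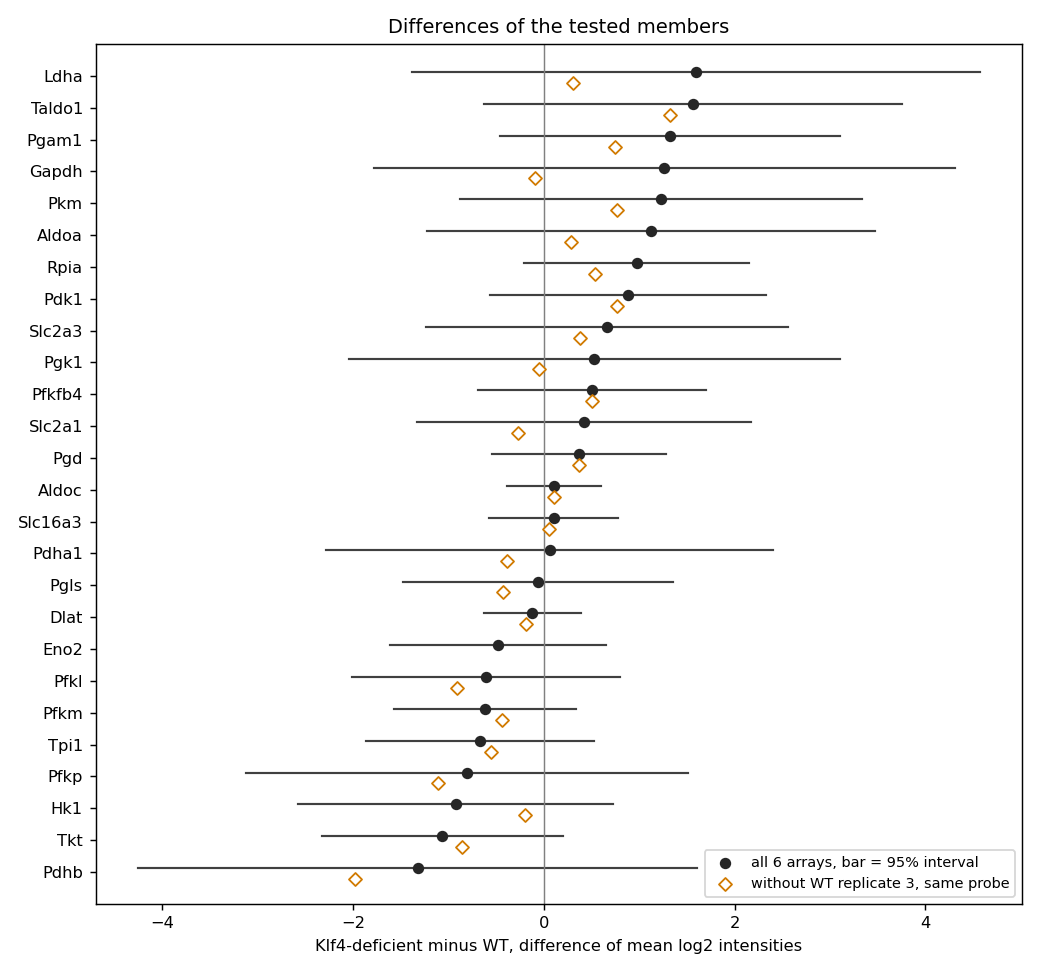
Difference of mean log2 intensities, Klf4-deficient minus WT, for the 26 tested genes, sorted by size. Black points with bars are the estimates and 95% intervals from all 6 arrays and open diamonds the estimates on the same probe without WT replicate 3 (none for Eno2, which was then below 32 on every array). All 26 bars cross 0, and the diamonds of Ldha, Gapdh, Aldoa and Slc2a1 lie at 0.30, -0.088, 0.29 and -0.27.

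**Figure D2:**
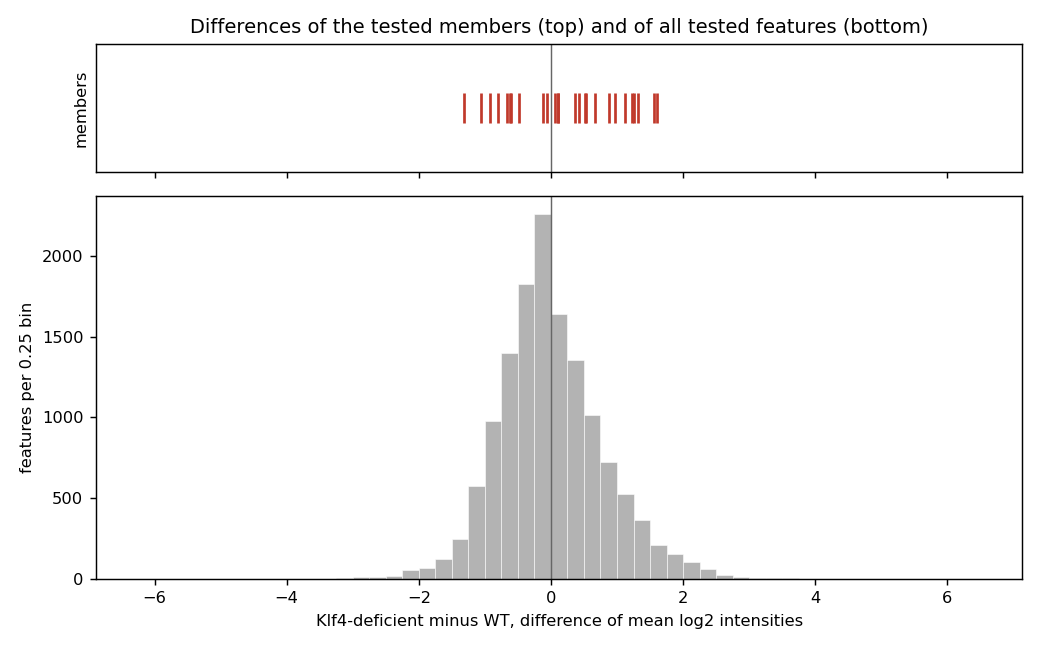
Differences of the 26 tested genes (red ticks) above the histogram of all 13773 tested features in bins of 0.25, both as Klf4-deficient minus WT on the log2 scale. The ticks run from -1.32 (Pdhb) to 1.60 (Ldha), inside the range of the histogram. Its bins at these ends hold 245 and 208 features, against 2262 in the tallest bin.

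Of the 4 carriers, which move glucose in and lactate out, 3 were tested and all 3 had small positive differences that did not pass the test. Slc2a1, the glucose transporter GLUT1, read 145.7, 127.6 and 75.3 in Klf4-deficient cells, against 167.8, 108.5 and 11.2 in WT. The Klf4-deficient values lay within the WT range, and the log2 difference of 0.42 ± 0.69 (SE with 3 arrays per group, adjusted p = 0.775) turned to -0.27 ± 0.41 without WT replicate 3. Slc2a3, the glucose transporter GLUT3, read 64.4, 5.6 and 208.6 in Klf4-deficient cells, against 61.5, 54.7 and 3.0 in WT, and 1 array of each group was thus below 32. Its difference was 0.67 ± 0.75 (adjusted p = 0.718), and -0.068 without Klf4-deficient replicate 3. Slc16a3, the lactate exporter MCT4, exceeded 32 only on replicate 1 of each group, at 49.6 in Klf4-deficient and 39.9 in WT cells. Slc16a1, the lactate carrier MCT1, stayed below 32 on all arrays, with 11.4 as its highest value.

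Upper glycolysis traps glucose as a phosphate and splits it into triose phosphates. Of 10 genes listed, 8 had a probe and 7 were tested, 2 higher and 5 lower in Klf4-deficient cells, with a median difference of -0.62 (log2), against -0.071 over all features. Hk1, hexokinase 1, which adds the first phosphate to glucose, read 26.4, 28.5 and 35.1 in Klf4-deficient cells, against 35.2, 40.8 and 170.6 in WT. All 3 Klf4-deficient values were below all WT values, the nearest pair by the smallest step of the deposited values, and 2 of them were below 32. The difference was -0.92 ± 0.65 (adjusted p = 0.718) and -0.20 ± 0.20 without WT replicate 3. Its other probe stayed below 32 throughout, as did Hk3, the hexokinase of myeloid cells.

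Phosphofructokinase, the main control point of glycolysis, has 3 subunit genes in mouse. Pfkm, the muscle-type subunit, read 30.6, 40.9 and 29.6 in Klf4-deficient cells, against 31.0, 68.7 and 69.1 in WT. Its Klf4-deficient values overlapped WT replicate 1, and the difference was -0.62 ± 0.38 (adjusted p = 0.718). A second Pfkm probe went the other way, with 21.7, 137.1 and 39.2 in Klf4-deficient cells, against 8.5, 3.5 and -4.6 in WT. Its difference was 1.74-fold (0.80 ± 0.59) with the floor at 32, and all WT arrays and Klf4-deficient replicate 1 were below that floor. These 2 probes differed in sign, so no direction can be given for Pfkm. Pfkp, the platelet-type subunit, read 78.6, 20.5 and 9.5 in Klf4-deficient cells, against 13.2, 270.9 and 49.5 in WT (-0.80 ± 0.91, and 0.12 without WT replicate 2). Pfkl, the liver-type subunit, exceeded 32 only on replicate 1 of each group, at 32.3 in Klf4-deficient and 113.4 in WT cells. The 3 subunit genes thus gave differences of -0.60 to -0.80 on their brightest probes with values scattered over single arrays.

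Aldoa, the aldolase that splits fructose bisphosphate, read 276.1, 310.0 and 132.5 in Klf4-deficient cells, against 335.7, 101.1 and 6.2 in WT. The groups overlapped, and the difference of 1.13 ± 0.93 (adjusted p = 0.718) was 0.29 ± 0.71 without WT replicate 3. Aldoc, a second aldolase, exceeded 32 only on Klf4-deficient replicate 1, at 40.0. Tpi1, which interconverts the triose phosphates, read 317.7, 433.3 and 223.1 in Klf4-deficient cells, against 281.3, 746.5 and 589.0 in WT. It was above 32 on all 6 arrays, with WT replicate 1 inside the Klf4-deficient range, and the difference was -0.67 ± 0.47 (adjusted p = 0.718). A second Tpi1 probe read 210.4, 347.5 and 401.3 in Klf4-deficient cells, against 230.4, 505.0 and 1055.2 in WT, a difference of -0.69 ± 0.62. Without WT replicate 3 it was -0.15, and that of the first probe -0.55.

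Lower glycolysis turns triose phosphate into pyruvate and makes the ATP of the pathway. Of 6 genes listed, 5 were tested, 4 higher and 1 lower in Klf4-deficient cells. The median difference was 1.23, the value of Pkm, against -0.071 over all features. Each of the 4 higher genes read under 32 on WT replicate 3. Gapdh, glyceraldehyde 3-phosphate dehydrogenase, read 544.7, 390.3 and 591.5 in Klf4-deficient cells, against 642.5, 441.4 and 23.6 in WT. WT replicate 1 lay above all Klf4-deficient arrays, WT replicate 2 among them and WT replicate 3 below, and the difference of 1.26 ± 1.21 (adjusted p = 0.718) turned to -0.088 ± 0.32 without WT replicate 3. Pgk1, phosphoglycerate kinase 1, read 327.8, 102.4 and 17.7 in Klf4-deficient cells, against 78.1, 143.1 and -0.9 in WT (0.53 ± 1.02, adjusted p = 0.806, and -0.046 without WT replicate 3). Pgam1, phosphoglycerate mutase 1, read 329.3, 134.2 and 128.6 in Klf4-deficient cells, against 73.9, 152.7 and 17.4 in WT. Klf4-deficient replicate 1 was the highest of the 6 and WT replicate 2 lay above the other 2 Klf4-deficient arrays. The difference of 1.33 ± 0.71 (adjusted p = 0.718) kept its sign when any 1 array was left out, from 0.75 without WT replicate 3 to 1.88 without WT replicate 2.

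Pkm, the pyruvate kinase that makes pyruvate, read 138.7, 175.1 and 118.7 in Klf4-deficient cells, against -9.5, 219.1 and 2.5 in WT. WT replicate 2 was the highest of the 6 arrays and the other WT arrays were below 32, so that the difference of 1.23 ± 0.83 (adjusted p = 0.718) joined unlike WT arrays. It was 0.77 without WT replicate 3 and 2.15 without WT replicate 2. A second Pkm probe read 101.0, 118.0 and 33.3 in Klf4-deficient cells, against 102.4, 100.9 and -13.1 in WT, a difference of 0.088 ± 0.72, and -0.47 without WT replicate 3. The brightest probe was placed on a cDNA clone and the second on a RefSeq transcript. The probes disagreed on WT replicate 1, at -9.5 and 102.4. Eno2, the enolase first known from neurons, exceeded 32 only on WT replicate 3, at 86.1.

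Ldha, the lactate dehydrogenase subunit that favours lactate, gave the largest difference of the 26 genes, 1.60 ± 1.18 (log2, SE, n = 3 per group, adjusted p = 0.718). It read 490.2, 624.4 and 659.7 in Klf4-deficient cells, against 328.2, 689.5 and 0.2 in WT. The 3 Klf4-deficient arrays were close together and lay between WT replicates 1 and 2, while WT replicate 3 was at background. Without that array the difference was 0.30 ± 0.41 (adjusted p = 0.836). Ldhb, the other subunit, stayed below 32 on all arrays on its 1 probe, which was placed on a cDNA clone and not on a RefSeq transcript. Of the bifunctional enzymes that set fructose 2,6-bisphosphate, the activator of phosphofructokinase, Pfkfb3 stayed below 32 on all arrays, and Pfkfb4 exceeded it only on Klf4-deficient replicate 1, at 92.1.

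**Figure D3:**
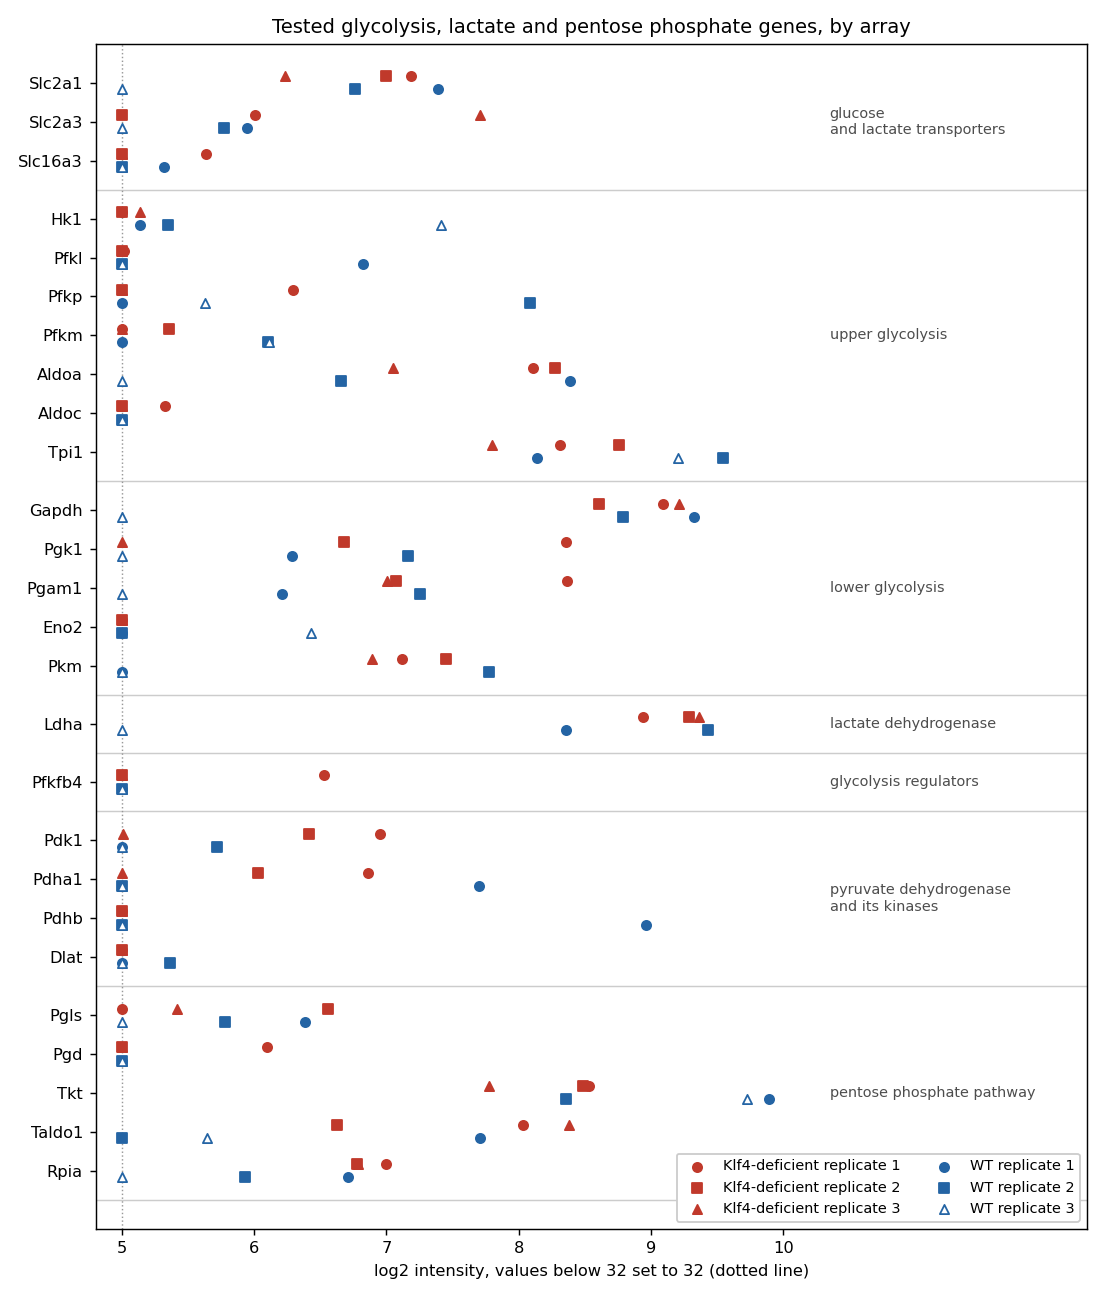
Log2 intensity of each tested gene on its brightest probe, with genes in rows grouped by role, Klf4-deficient arrays in red and WT arrays in blue just beneath, a marker shape per replicate, and WT replicate 3 open. Values below 32 are drawn at 32 (the dotted line, log2 of 5), where points cover each other. The open triangles of Ldha, Gapdh, Aldoa, Pgam1, Slc2a1 and Rpia sit on that line while the other 5 arrays lie to its right.

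Pyruvate dehydrogenase feeds pyruvate into the citric acid cycle, and its kinases hold it inactive. Pdk1, the kinase known as a target of hypoxia signalling, read 123.7, 85.3 and 32.1 in Klf4-deficient cells, against 23.9, 52.6 and -10.5 in WT. All 3 Klf4-deficient arrays were above 32, against 1 of 3 WT arrays, with WT replicate 2 inside the Klf4-deficient range. The difference of 0.88 ± 0.57 did not pass the test (adjusted p = 0.718). Leaving out Klf4-deficient replicate 1 gave the lowest value, 0.47, and leaving out replicate 3 of that group the highest, 1.44. A second Pdk1 probe read 100.4, 17.7 and 23.7 in Klf4-deficient cells, against -4.8, 27.1 and 1.1 in WT. With the floor at 32 it was 1.46-fold higher in Klf4-deficient cells, on the strength of 1 Klf4-deficient array. Pdk2 stayed below 32 on all arrays.

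The subunits of the complex were uneven between arrays, with most values below 32. Pdha1, the alpha subunit of its first enzyme, read 116.4, 65.4 and 2.9 in Klf4-deficient cells, against 207.9, 13.1 and -7.1 in WT (0.065 ± 0.93, adjusted p = 0.974). Pdhb, the beta subunit, read 21.8, -12.2 and 5.6 in Klf4-deficient cells, against 499.5, 25.9 and -11.9 in WT. Its difference, 2.50-fold lower in Klf4-deficient cells with the floor at 32 (-1.32 ± 1.16), came from WT replicate 1 alone. Of its other probes, 1 stayed below 32 throughout and 1, placed on a cDNA clone, exceeded it only on WT replicate 2, at 37.8. Dlat, the acetyltransferase of the complex, exceeded 32 only on WT replicate 2, at 41.1.

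The pentose phosphate genes held the 2 smallest p-values of the 26, of opposite direction. Tkt, transketolase, which links the pathway back to glycolysis, read 369.1, 358.6 and 219.4 in Klf4-deficient cells, against 948.2, 328.5 and 846.0 in WT. WT replicates 1 and 3 were above all Klf4-deficient arrays and WT replicate 2 was between them. The difference of -1.06 ± 0.50 (95% interval -2.33 to 0.21, adjusted p = 0.718) kept its sign when any 1 array was left out, from -1.54 without WT replicate 2 to -0.78 without WT replicate 1. The other 3 Tkt probes stayed below 32 throughout. Rpia, the isomerase that makes ribose 5-phosphate, read 127.7, 109.9 and 110.1 in Klf4-deficient cells, against 104.5, 61.1 and -3.0 in WT. The Klf4-deficient arrays were close together and all 3 lay above every WT array. The difference of 0.97 ± 0.47 (95% interval -0.20 to 2.15, adjusted p = 0.718) was 0.53 ± 0.31 without WT replicate 3.

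Taldo1, transaldolase, the partner of transketolase, read 262.3, 98.9 and 333.3 in Klf4-deficient cells, against 209.5, 26.1 and 50.0 in WT. WT replicate 1 lay inside the Klf4-deficient range and the other WT arrays beneath it, and the difference of 1.56 ± 0.87 (adjusted p = 0.718) was 1.00 without WT replicate 2 but 2.36 without WT replicate 1. Tkt and Taldo1, which act on the same sugar phosphates, thus had differences of opposite sign, neither past the test. Of the oxidative enzymes, Pgd, 6-phosphogluconate dehydrogenase, exceeded 32 only on Klf4-deficient replicate 1, at 68.5. Pgls, the lactonase, read 12.5, 94.1 and 42.7 in Klf4-deficient cells, against 83.3, 55.0 and -2.0 in WT (-0.063 ± 0.56). Its second probe read 42.1, 24.0 and 50.0 in Klf4-deficient cells, against 11.1, 14.0 and 4.2 in WT. With the floor at 32 it was 1.27-fold higher in Klf4-deficient cells, with Klf4-deficient replicate 2 and all WT arrays below 32. Rpe, the epimerase, stayed below 32 on all arrays.

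Probes of a gene could be compared for the 7 genes with more than 1 probe above 32. With all arrays, the sign was the same for 4 of them (Pdhb, Pdk1, Pkm and Tpi1) and opposite for 3 (Pfkm, Pfkp and Pgls). For Pkm this rested on WT replicate 3, without which its second probe turned to -0.47 and the brightest stayed at 0.77. In a fit of each probe by itself, 34 of the 57 probes exceeded 32 on at least 1 array and were tested, and 0 were called by limma, against 0% of 18270 probes, with 0 at an unadjusted p under 0.05, against 2.03%. Only 3 of the 34, those of Tkt and the 2 of Tpi1, exceeded 32 on all 6 arrays. Of the 48 probes placed on RefSeq transcripts 29 exceeded 32 on at least 1 array, and of the 9 placed on other sequences, mostly cDNA clones, 5 did. The brightest probes of Pkm, Pdk1 and Pgls and the only probes of Pgd and Ldhb were among those 9.

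**Figure D4:**
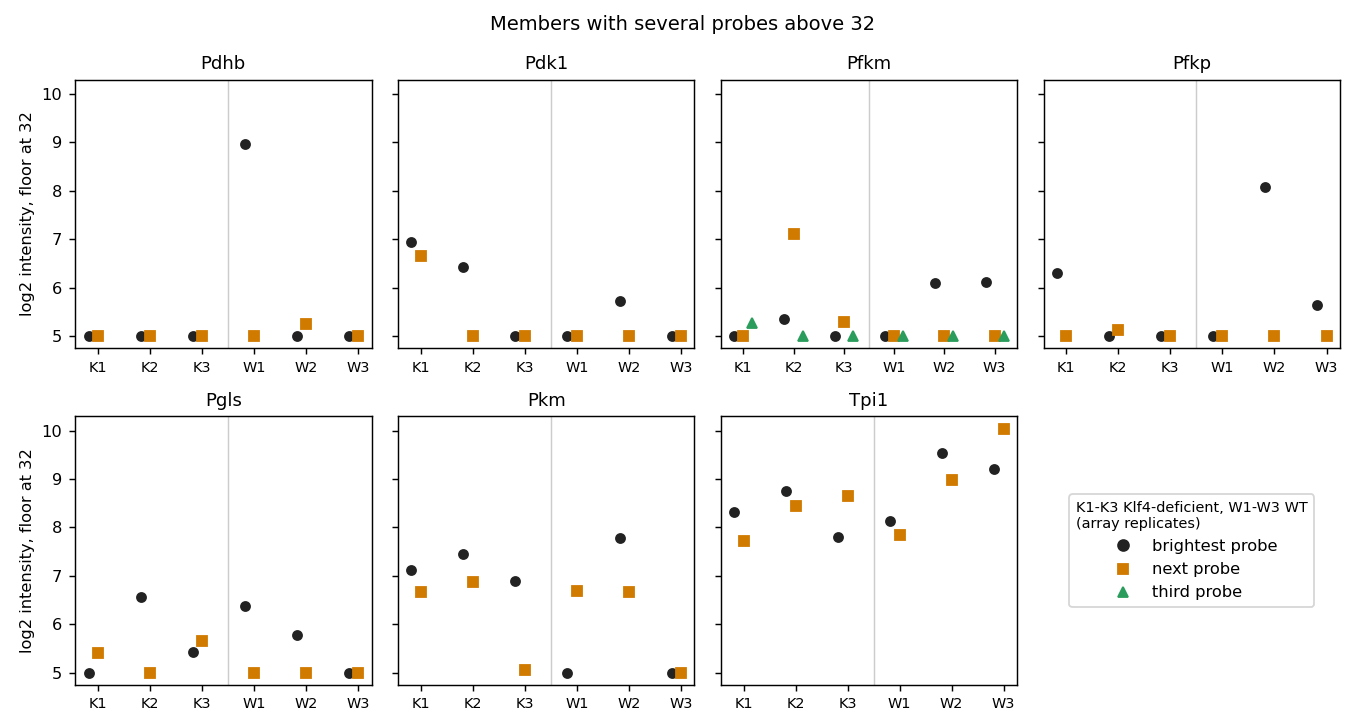
Log2 intensity (floor at 32) by array for the 7 genes with more than 1 probe above 32, with Klf4-deficient arrays K1 to K3 left of WT arrays W1 to W3 and a colour and shape per probe. The 2 Tpi1 probes keep near each other on every array, the Pkm probes part on W1, and the Pfkm probes are bright on different arrays.

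How many of these genes stood above background differed from array to array. On Klf4-deficient replicates 1, 2 and 3, 20, 15 and 14 of the 26 tested genes exceeded 32, against 17, 17 and 7 on WT replicates 1, 2 and 3, while the share over all tested features was 40.4% to 42.6% on each array. Of the 8 genes above 32 on all arrays other than WT replicate 3, 6 were below it there (Slc2a1, Aldoa, Gapdh, Pgam1, Ldha and Rpia), and Tpi1 and Tkt were not. The same held for 52.8% of the 2301 features that were above 32 on those 5 arrays, while the share was 4.82% to 6.47% when any other array took its place. WT replicate 3 was also the highest of the 6 arrays for 3 of the 26 genes (Hk1, Pfkm and Eno2), against 31.8% of all features. Klf4-deficient replicate 1 was the highest for 8 of the 26, Slc16a3, Aldoc, Pgk1, Pgam1, Pfkfb4, Pdk1, Pgd and Rpia, against 13.1% of all features. The spread within a group, as the median SD over the 26 genes, was 0.45 in Klf4-deficient and 0.95 in WT cells (log2, n = 3 each), against 0.33 in Klf4-deficient and 0.73 in WT cells over all features. Between WT replicates 1 and 2 alone it was 0.58, against 0.14 over all features. On each of those 2 arrays 65.4% of the 26 genes exceeded 32, against 40.4% and 41.2% of all features. Values set to 32 on both arrays have no spread, so the spreads of the genes and of all features are not directly comparable.

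**Figure D5:**
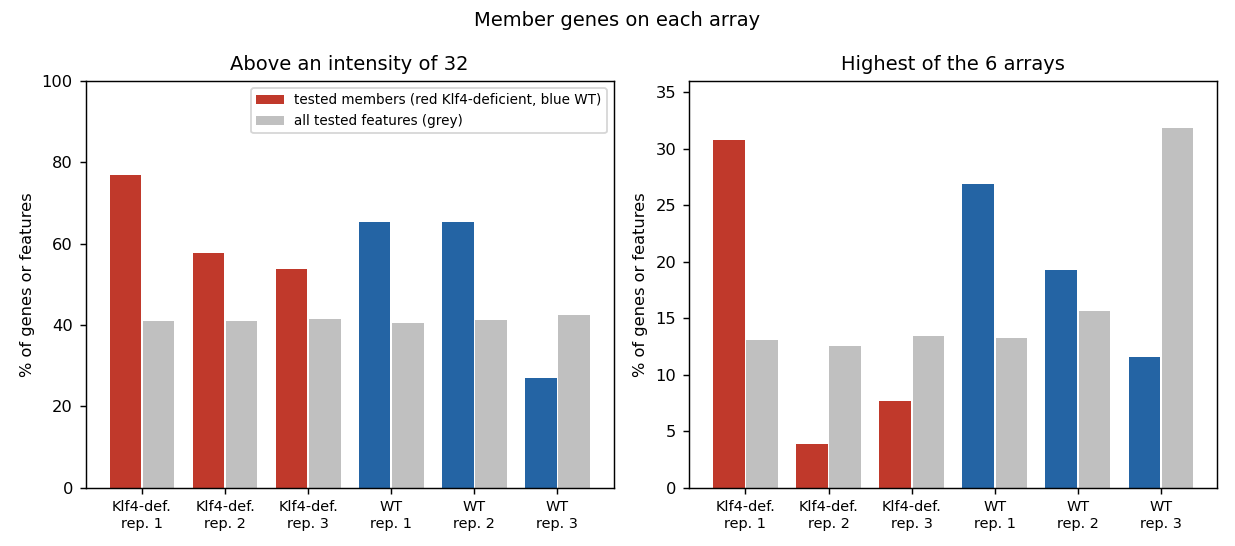
Left, share of the 26 tested genes (coloured) and of all 13773 tested features (grey) above an intensity of 32 on each array, and right, share for which that array was the highest of the 6, with Klf4-deficient arrays in red left of WT arrays in blue. The coloured bar of WT replicate 3 is the lowest on the left, at 26.9%, beside a grey bar of 42.6%.

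Other genes around the pathway were taken from 6 further lists. None of their genes was called, and 1, Pdk3, reached an unadjusted p under 0.05 (limma, 2.16% of all features). Of 11 other lactate and pyruvate genes tested, 7 were higher and 4 lower, with a median of 0.49. Pdk3, another pyruvate dehydrogenase kinase, read 72.9, 541.7 and 321.9 in Klf4-deficient cells, against 39.9, 53.5 and 5.2 in WT. All 3 Klf4-deficient arrays were above all WT arrays, while 3.41% of all features had groups that did not overlap. The 5.71-fold difference (2.51 ± 0.79 log2, SE, n = 3 per group) had an adjusted p of 0.718 in limma over all features. Without WT replicate 3 it was 2.34. Emb, embigin, a partner of lactate carriers, read 137.4, 245.3 and 187.2 in Klf4-deficient cells, against 78.0, 165.7 and 12.1 in WT (1.31 ± 0.65). Of 12 other glycolysis and glucose transport genes, 4 were higher and 8 lower (median -0.17). Pklr, the pyruvate kinase of liver and red cells, read 114.9, 165.0 and 67.0 in Klf4-deficient cells, against 91.6, 2.7 and -5.2 in WT (1.25 ± 0.57). Pgm1, a phosphoglucomutase, read -13.4, 16.2 and 78.4 in Klf4-deficient cells, against 226.3, 144.3 and -13.0 in WT (-1.23 ± 0.85).

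Of 5 other pentose phosphate and ribose genes, 4 were higher and 1 lower (median 0.41). Prps1, which makes phosphoribosyl pyrophosphate from ribose 5-phosphate, read 281.8, 814.2 and 805.0 in Klf4-deficient cells, against 715.1, 359.8 and 2.3 in WT (1.50 ± 1.27), and 0.17 without WT replicate 3. Tktl1, a transketolase-like gene, exceeded 32 only on WT replicate 3, at 161.4. Of 7 gluconeogenesis and glycogen genes, 5 were higher and 2 lower (median 0.15), among them Ugp2, which makes UDP-glucose (-0.64 ± 0.34, all Klf4-deficient arrays below 32), and Gpd2, the mitochondrial glycerol phosphate dehydrogenase (-0.92 ± 0.77). Hypoxia and sugar sensing regulators split into 5 higher and 5 lower (median 0.074). The 2 with the smallest p were above 32 on 1 array each, Mlxip at 176.8 on Klf4-deficient replicate 3 and Hif1an at 162.7 on WT replicate 3. Of 10 hypoxia targets outside glycolysis, 7 were higher and 3 lower (median 0.31), with Ero1a, an oxidase of protein folding, at 89.6, 102.5 and 114.9 in Klf4-deficient cells, against 136.4, 58.3 and -5.7 in WT (0.68 ± 0.56). Vegfa, the vascular growth factor, exceeded 32 only on Klf4-deficient replicate 2, at 141.0.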

How the data were processed

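The authors deposited linear intensities for every probe. Per the labels' protocols, a service laboratory hybridised and scanned the arrays. The submitters' processing notes name BeadStudio. The version, background method and normalization are not given in these sources. Since 45.3% to 45.6% of the values of an array were 0 or negative (lowest -31, highest 37007.2), background had been subtracted before deposit, and the arrays shared nearly the same sorted values. They were not normalized again. Intensities under 32 were raised to 32 before taking log2, which can understate or overstate folds of dim probes. A fold against a group wholly below 32 is given with this floor. It is not a lower bound where arrays of the brighter group were also below 32.

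A gene was its probe with the highest mean log2 value. Probes without a single symbol entered as themselves. Of 29453 features, the 13773 with a mean above the median of all probe means, that is above 32 on at least 1 array, were tested with limma 3.58.1 in R 4.3.3 (with version 1.17.8 of data.table), without a replicate block. P-values were adjusted by Benjamini-Hochberg over all features, with a threshold of 0.05. The fit was also run on simulated data with known differences. Those had normal values without a floor and the same spread in both groups, so the run cannot show how the fit performs on these data.

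The members and lists were chosen with earlier results of these data known. Values were given for the 6 members with the smallest p, the 5 with the highest mean intensity and those whose groups did not overlap, which came to 11 genes. The rest were given by role, and up to 2 genes of each further list by smallest p. Alternatives were another floor, an offset, other filters, the mean of a gene's probes, renewed quantile normalization, trend and robust eBayes, a replicate block and leaving out each array. With 3 arrays a group, their number limits the precision. Probe sequences and positions were not used here.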

Additional observations from a re-analysis of the deposited data

How the results depend on the processing

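Of the 14 alternatives, none called any of the genes or single probes of sugar metabolism. Over all features 1 was called in place of 0 with no filter on dim features and 1 when the probes of a gene were averaged. The count of genes higher in Klf4-deficient cells, 16 of 26, was 11 of 23 without Klf4-deficient replicate 1 and 18 of 26 without WT replicate 1, the extremes when 1 array was left out, and 12 of 20 with the 75th percentile filter. The median difference, 0.24 (log2), lay between -0.11 and 0.51 when 1 array was left out. It was 0.61 with an offset of 16, 0.48 with the 75th percentile filter, 0.18 with a floor of 64, 0.14 when probes were averaged and 0.032 with no filter. For the 11 named genes, 149 of 154 values kept their direction and stayed uncalled, with 0.45 as the lowest adjusted p in limma, reached with no filter. The other filters, trend and robust eBayes and the replicate block leave these differences unchanged by construction. Direction could not turn there, so the count is no measure of how stable the directions are. Pfkm turned to 0.37 with a floor of 64, to 0.088 with its probes averaged, and to 0.80 without WT replicate 2 or WT replicate 3, where another of its probes was the brightest (range -0.99 to 0.80 with 1 array left out). Gapdh turned to -0.088 without WT replicate 3 and was 2.08 without WT replicate 1. With the replicate block, 0 genes were called (lowest adjusted p 0.75), as without it. Deviations of same-numbered arrays correlated at 0.037, 0.048 and 0.047, and those of other pairs at -0.037 to -0.0091. These values are small, although all 6 arrays matched their own number best. Whether same-numbered arrays are pairs is not stated in these sources. Signal over background limits most of these values, since 2 of 26 genes were above 32 on all 6 arrays.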
